A study of Zea mays with 192 samples.

Results

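Single maize leaf protoplasts carrying a pool of basic helix-loop-helix (bHLH) transcription factors were ordered by how much of their factor RNA came from ms23, and the cells at the top of this order were compared with those at the bottom. The ms23 share is the number of unique molecular identifiers (UMIs, tags that mark single RNA molecules) on the ms23 gene model GRMZM2G021276, divided by the UMIs summed over 4 factor gene models. These are ms23, ms32 (GRMZM2G163233), GRMZM2G139372 and AC233960.1_FG005. Of the 192 protoplasts in the series, 96 received the bHLH pool. Of these, 95 had at least 20 factor UMIs and 1, with 10, was left out. The order was cut into a high-share group of 31 cells, a middle group of 33 and a low-share group of 31, so that 62 of 95 cells were compared. The groups were thus chosen by the measured UMIs of the 4 gene models, and differences in these are a description of the choice.

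All cells came from leaves of B73, a wild-type inbred line, grown at 25 °C without light for 10 to 12 days, with leaves of several seedlings pooled for an isolation. The other 96 protoplasts received a pool of pre-meiotic anther factors and serve here as a background level. The series holds no untransfected cells, and the sources used here name neither the promoter of the constructs nor separate transfections. Both groups were therefore cells of 1 pool, which is 1 replicate: the differences below have no replicate check, no test was made from cells, and intervals cover counting error only. The study's purpose, per its design text, was to express candidate regulators of anther phasiRNAs in a tissue that normally keeps them silent.

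Ms23 and Ms32 are bHLH factors of the tapetum, the inner layer of the anther wall that feeds the pollen mother cells, and loss of either makes maize male sterile. In the maize anther Ms23 acts upstream of the other tapetal bHLH factors, and the tapetum is the source of the 24-nucleotide phasiRNAs, small RNAs cut at regular steps from transcripts of PHAS loci. In the pre-meiotic pool the 4 factor gene models together had 4 UMIs, with 0 on ms23, 1 on ms32, 0 on GRMZM2G139372 and 3 on AC233960.1_FG005.

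The ms23 share ran from 3.85% to 40.0% of factor UMIs over the 95 cells, with a median of 16.9%. Pooled over cells it was also 16.9% (2638 of 15597 UMIs). The last cell inside the high-share group had 19.3% of 243 UMIs and the first outside it 19.0% of 63. The low-share group ended within a tie: 3 cells had 14.3%, so that the cells on either side of that boundary (161 and 175 UMIs) had the same share. The SD of the share over cells was 6.01 percentage points, where counting alone would give 4.30. The 95% interval of a single cell's share left out the pooled share in 17 cells, of which 7 were in the high-share group, 10 in the low-share group and 0 between. Fewer than 50 factor UMIs stood behind the share of 10 cells of the high-share group, 5 of the middle and 9 of the low-share group. Membership in a group therefore rested on few molecules in many cells.

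**Figure D1:**
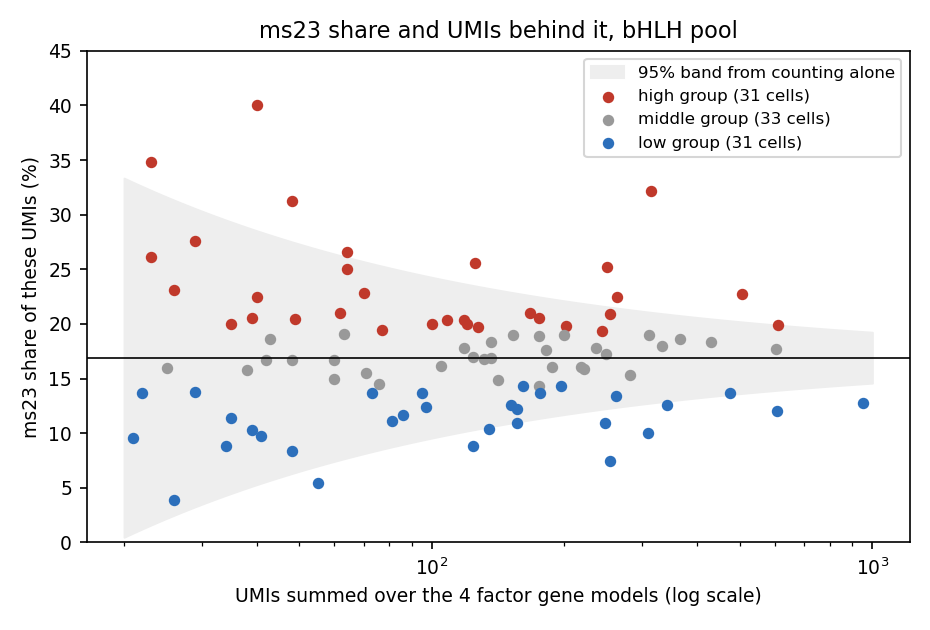
The ms23 share in percent (vertical axis) against the UMIs summed over the 4 factor gene models (horizontal log axis) for 95 cells, with the pooled share of 16.9% as a line and the 95% band that counting alone would give in grey. Many coloured cells lie inside the band, and the cells outside it belong to the high or the low-share group.

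The groups had similar totals of factor RNA and overlapping depths. The 4 gene models together averaged 4547 UMIs per 1000000 UMIs of a cell (TPM) in the high-share group, 5328 in the middle and 4623 in the low-share group. Cells had a median of 24973 UMIs in the high-share group (range 4699 to 113328), 33740 in the middle and 27561 in the low-share group (range 6078 to 148894). A median of 4835 gene models was detected in the high-share group and 5744 in the low-share group, and over all 95 cells the share had a Spearman correlation of -0.07 with the total UMIs and of -0.08 with the number of gene models. The high-share cells were somewhat shallower at the median, and the part of depth in the ratios below was not tested. Averaged within cells above and below the median depth, 20 of the 24 gene models with the widest ratios named below were past 2-fold. These genes were picked for their gap in the same cells, so the count is no independent check on depth. The most abundant gene model, GRMZM2G028910, took a median of 20.4% and 21.9% of a cell's UMIs in the high- and low-share groups.

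Levels of ms23 itself follow from the way the cells were chosen and are given as a description. In the high-share group ms23 ran from 293 to 2056 TPM around a median of 1067, and in the low-share group from 63.4 to 1907 around 444. The ranges overlapped widely, because a cell with much factor RNA can have a high level of ms23 at a low share. Mean levels were 1066 ± 514 TPM in the high-share group, 911 ± 481 in the middle and 535 ± 377 in the low-share group (SD over cells).

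Among the other factors the share of AC233960.1_FG005 differed most. Its share per cell had a median of 34.6% in the high-share group (20.0% to 48.8%) and 42.2% in the low-share group (19.2% to 68.5%), so the ranges overlapped while the low-share group reached higher. Its mean level was 1573 ± 709 TPM against 2055 ± 1401 TPM. For ms32 the median share was 28.1% in the high-share group (19.2% to 42.3%) and 33.3% in the low-share group (12.3% to 73.1%), and its mean level was 1399 against 1481 TPM. GRMZM2G139372 had medians of 10.7% and 12.2% and mean levels of 508 and 552 TPM. Since the 4 shares add to 100% in each cell, some of the others must be lower where ms23 is higher. Pooling UMIs over cells gave AC233960.1_FG005 34.0% and 50.1%, and ms32 32.5% and 26.8%, the opposite order for ms32 from the medians of cells. The deepest cell of the low-share group, protoplast 83, held 12.9% of that group's UMIs over all rows. The part of this cell in the pooled factor shares was not tested.

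**Figure D2:**
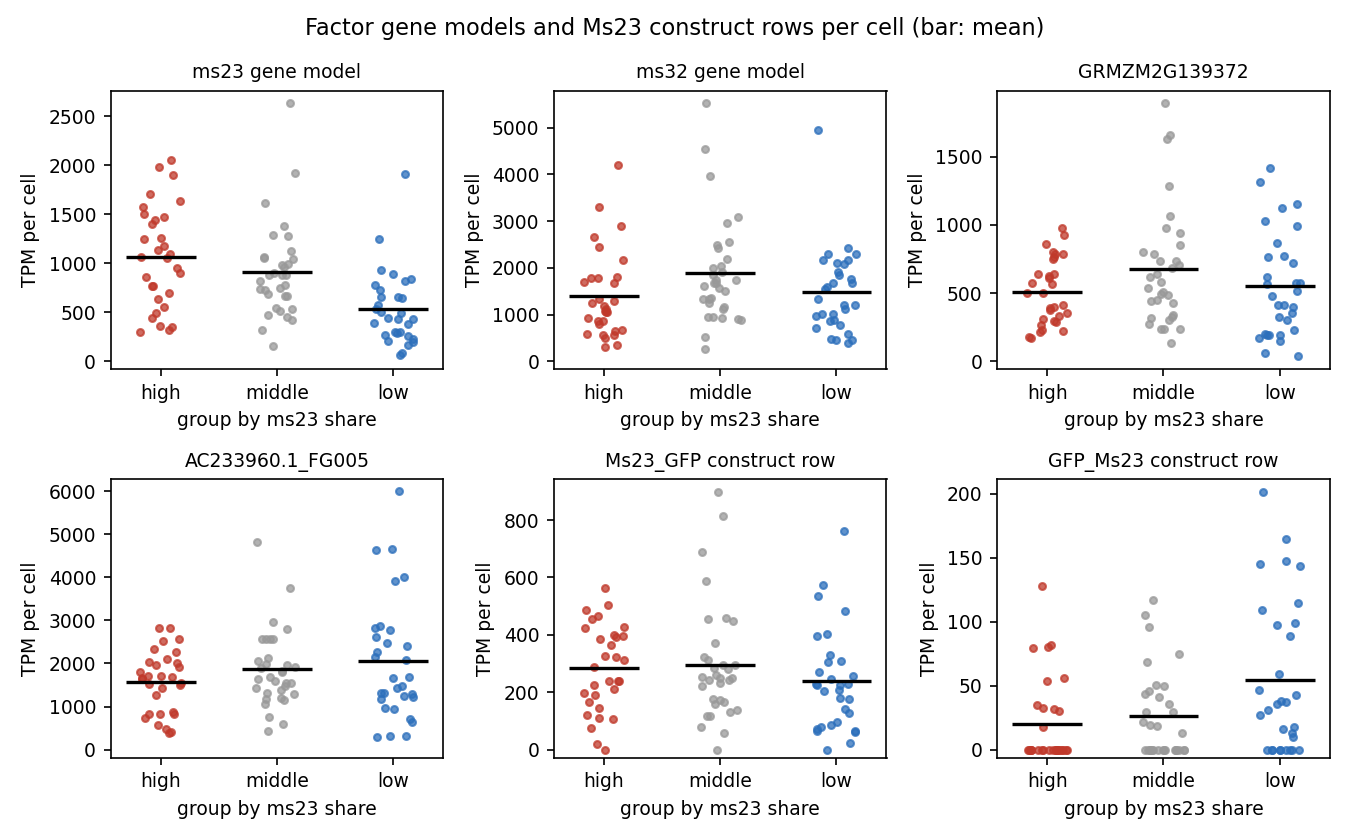
Level per cell in TPM (vertical axes, each from 0) of the 4 factor gene models and of both Ms23 construct rows in the 3 groups by ms23 share, with a bar at the mean. Mean ms23 was 1066, 911 and 535 TPM from the high-share to the low-share group, whereas Ms23_GFP averaged 284, 296 and 238 TPM and GFP_Ms23 20.2, 26.0 and 54.4 TPM.

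The table also has rows for the transfected fusions with green fluorescent protein, and these were not used to choose the cells. Ms23_GFP ran from 0 to 565 TPM in the high-share group, with a median of 288, and from 0 to 763 in the low-share group, with a median of 225. Means were 284 ± 150 and 238 ± 176 TPM, a log2 ratio of 0.23 relative to the median gene. The groups overlapped almost entirely, and the middle group, at 296 TPM, was above both. Over the 95 cells the ms23 gene model and Ms23_GFP had a Spearman correlation of 0.736 in TPM, with both values taken from the same libraries.

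GFP_Ms23, the row named with the fluorescent protein first, went the other way. It averaged 20.2 ± 33.6 TPM in the high-share group and 54.4 ± 59.4 TPM in the low-share group, a log2 ratio of -1.11, with medians of 0 and 35.4 TPM and highest cells of 128 and 201. A UMI was seen in 11 of 31 and 22 of 31 cells. After thinning to 5000 UMIs per cell these shares were 10.0% and 22.6%, and in the pre-meiotic pool the row had 3 UMIs in all. Summed UMIs were 34 against 49, which relative to the median gene is a ratio of 0.761 with an interval of 0.476 to 1.20 that includes equality.

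Among the other fusions the ratios were smaller than 2-fold in each row. bHLH51_GFP averaged 691 TPM in the high and 596 in the low-share group, bHLH122_GFP 750 and 627, and Ms32_GFP 226 and 212. GFP_Ms32 averaged 45.9 and 44.0 TPM, GFP_bHLH51 44.7 and 28.8, and GFP_bHLH122 76.9 and 107. The cells of the high- and low-share groups overlapped in all 6 rows.

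Over all 8 construct rows the share of Ms23 was similar in the 3 groups. Both Ms23 fusions made up 14.9% of the construct UMIs in the high-share group (298 of 1999, exact interval 13.4% to 16.6%), 13.1% in the middle (339 of 2580, 11.9% to 14.5%) and 14.6% in the low-share group (293 of 2005, 13.1% to 16.2%). The 3 intervals overlapped. The construct share could be read in 78 cells with at least 20 construct UMIs, and across them it had a Spearman correlation of 0.05 with the gene model share. With 50 or more UMIs behind both shares the correlation was 0.15 over 50 cells, a cut made after the values were seen. The SD of the construct share over the 78 cells was 4.62 percentage points, and counting alone would give 4.80. In the same 78 cells the SD of the gene model share was 5.00 percentage points and counting alone would give 3.54. More UMIs stood behind the gene model share, with a median of 152 against 63, and the gene model share was the value that ordered the cells.

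Ordering the 78 cells by construct share gave groups of 26 cells at the top and at the bottom. By both orders 10 cells were high and 6 were low. A further 8 were high by gene model and low by construct, and 8 were low by gene model and high by construct. Cells at the same end in both orders were thus as many as cells at opposite ends. Unrelated orders would on average give that too.

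**Figure D3:**
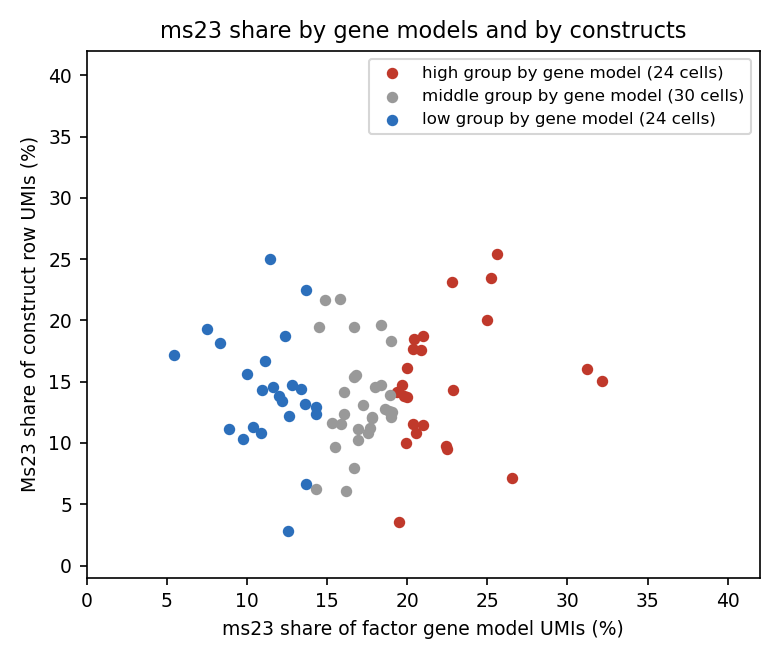
The Ms23 share of construct UMIs in percent (vertical axis) against the ms23 share of factor gene model UMIs in percent (horizontal axis) for 78 cells, coloured by the group the gene models put them in. The 3 colours separate from left to right by choice and overlap in the vertical direction, with a Spearman correlation of 0.05.

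Of 1773 gene models detected in 25% or more of the cells of a group at a mean of 50 TPM or more, 15 (0.846%) were at least 2-fold higher and 15 (0.846%) at least 2-fold lower in the high-share group, 1.69% together. The ratio is that of mean TPM plus 10, relative to the median gene model, whose own log2 ratio was 0.02, and the pseudocount of 10 understates the ratio of low genes. From ratios of summed UMIs the counts were 10 and 2. Of the 15 higher gene models 14 met the minimum through the high-share group alone, and of the 15 lower ones 15 through the low-share group alone, so the minimum itself favoured a gap. With the same minimum applied to the mean of all 95 cells, a choice made after the values were seen, 3 of 1437 were 2-fold higher and 3 were 2-fold lower. The central log2 ratios ran from -0.25 to 0.22 (quartiles) and the extremes from -1.67 to 1.89. All 15 of the lower and 14 of the 15 higher gene models had means under 100 TPM in both groups. Of 171 gene models at 500 TPM or more in a group, 0 reached 2-fold. Without the highest cell of each group, 7 of the 15 higher and 11 of the 15 lower ones were still past 2-fold.

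The middle group, which was not part of the comparison, lay between the others for 11 of the 15 higher and 13 of the 15 lower gene models, against 34.2% of all 1773. The genes were picked for a wide gap between the outer groups, so this count is not an independent check.

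**Figure D4:**
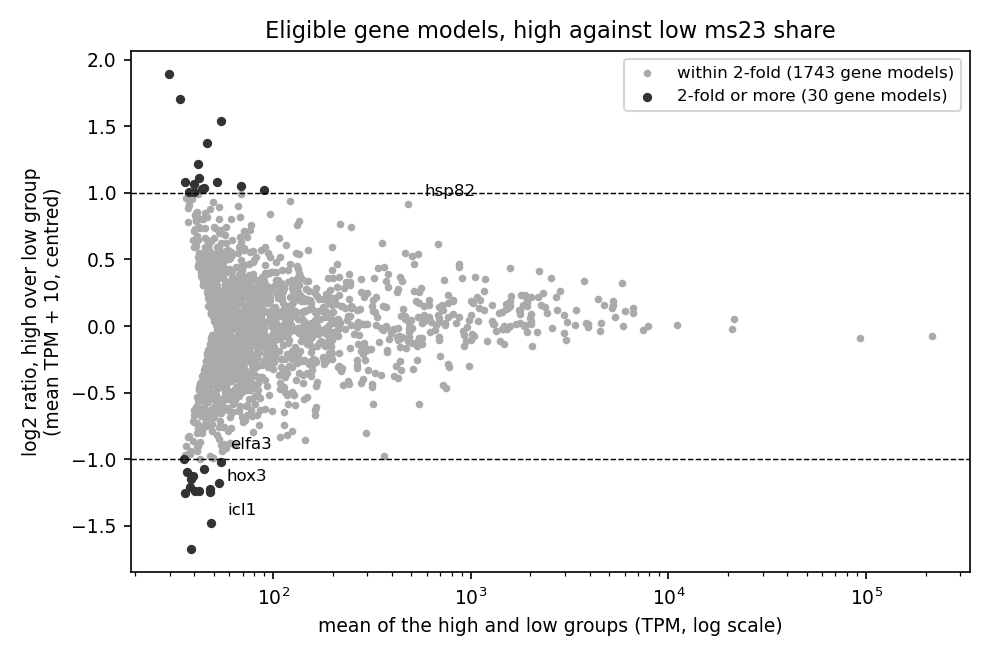
Log2 ratio of the high over the low-share group, relative to the median gene model (vertical axis), against the mean TPM of both groups (horizontal log axis) for 1773 gene models, with 2-fold marked by dashed lines. The 30 gene models past 2-fold lie at the left, among low levels, and hsp82 at 0.91 is the widest of those at 500 TPM or more.

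At the high end of the list the gene models had no informative name in the reference table, and are given by identifier. GRMZM2G149422 had UMIs in 13 cells of the high-share group, reaching 348 TPM, and in 7 of the low-share group, reaching 63.4, with a median of 0 in both. Its means were 52.7 ± 99.7 against 6.74 ± 14.9 TPM, the widest ratio upward (log2 1.89), on 57 against 8 UMIs (ratio relative to the median gene 7.82, interval 3.71 to 19.0). The middle group averaged 24.4 TPM. Most cells of both groups were at 0. The gene models named at either end of the list were picked for their gap in these cells. An interval of their UMI ratio that leaves out equality is therefore no further evidence of a difference.

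GRMZM2G111475 followed with 57.1 ± 108 against 10.4 ± 25.1 TPM (log2 1.70), in 15 and 7 cells, and 60 against 15 UMIs (4.39, 2.46 to 8.32). Its highest cells were at 546 and 111 TPM, and the middle group averaged 43.5. GRMZM2G075244 averaged 86.1 against 22.7 TPM (1.54), with 1 cell at 1317 TPM in the high-share group, and its ratio without the highest cell of each group was 1.12. GRMZM2G019121 was more even: it was found in 21 and 17 cells with medians of 37.6 and 15.3 TPM, and averaged 71.2 ± 87.7 against 21.0 ± 25.3 TPM (1.37). GRMZM2G099352 averaged 62.2 against 20.8 TPM (1.21).

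The remaining 7 of the 12 highest were GRMZM2G078826, GRMZM2G007157, GRMZM2G152179, GRMZM2G112912, GRMZM2G095280, GRMZM2G068331 and GRMZM2G465430, with log2 ratios from 1.03 to 1.11. Among them GRMZM2G078826 had 33 UMIs in each group, and a log2 ratio of 0.09 from summed UMIs. GRMZM2G095280 was highest in the middle group (105 TPM against 96.6 and 40.9).

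Among the 12 lowest, both genes with a name encode well-known proteins. The homeobox gene hox3 (GRMZM2G314546), whose product is a DNA-binding homeodomain protein, ran from 0 to 126 TPM in the high-share group with a median of 0, and from 0 to 329 in the low-share group with a median of 63.7. It was seen in 14, 27 and 25 cells of the high-share, middle and low-share groups, and in 20.0%, 36.4% and 51.6% of them after thinning. The means were 24.9 ± 35.2, 69.6 ± 61.8 and 70.7 ± 75.9 TPM, so the high-share group was the one that stood lower. The log2 ratio was -1.22, on 31 against 64 UMIs (0.531, 0.334 to 0.828), and the pre-meiotic pool averaged 31.9 TPM.

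The isocitrate lyase gene icl1 (GRMZM2G056369), an enzyme of the glyoxylate cycle, averaged 21.1 ± 36.7 TPM in the high-share group and 76.0 ± 187 in the low-share group (log2 -1.48), on 18 against 72 UMIs (0.274, 0.154 to 0.465). Its median was 0 in both groups, it had UMIs in 13 and 15 cells, and the highest cells reached 167 and 764 TPM. The middle group, at 13.8 TPM, was below both, and the pre-meiotic pool averaged 208 TPM.

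GRMZM2G312110 had the widest ratio downward (log2 -1.67), at 13.3 ± 20.9 against 63.5 ± 116 TPM with medians of 0 and 37.5, in 11 and 20 cells. GRMZM2G099048 was steadier, at 20.1 ± 31.1 against 60.3 ± 66.3 TPM (-1.24) with 42.5 TPM in the middle, and was seen in 13 and 24 cells. GRMZM2G379754 and GRMZM2G134529 (-1.15 and -1.13) had equal UMIs in 93 of 96 cells and are uncertain as 2 separate genes. Single cells weighed most on GRMZM2G329069 and GRMZM2G399921: their ratios of -1.26 and -1.25 became -0.73 and -0.60 without the highest cell of each group. The other 4 of the 12, GRMZM2G091839, GRMZM2G181135, GRMZM2G039214 and GRMZM2G077897, lay between -1.24 and -1.09.

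**Figure D5:**
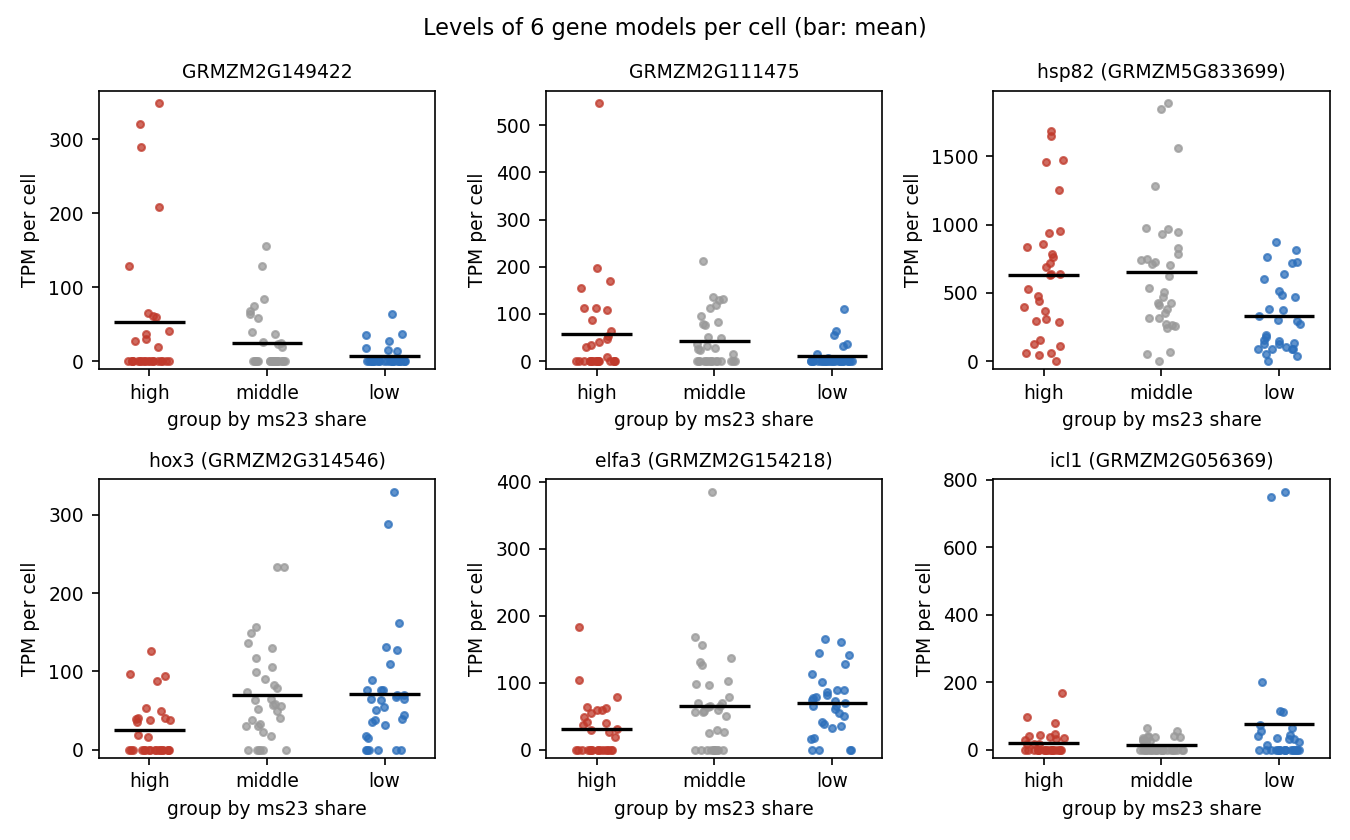
Level per cell in TPM (vertical axes, each from 0) of 6 gene models in the 3 groups by ms23 share, with a bar at the mean. GRMZM2G149422 and GRMZM2G111475 were detected in 13 and 15 cells of the high-share group against 7 and 7 of the low-share group, hox3 and elfa3 in 14 and 16 against 25 and 27, and hsp82 is at 634, 654 and 328 TPM from the high-share to the low-share group.

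The order by construct share was used as a second ranking of the same cells. That share spread no wider over cells than counting alone would give (SD 4.62 against 4.80 percentage points). Its order therefore cannot decide whether the ratio of a gene model holds. It put 10 of 1828 gene models at least 2-fold higher and 13 at least 2-fold lower (1.26% together). Of the 15 gene models higher by the gene model share, 0 were 2-fold higher and 5 were above the median gene. Of the 15 lower ones, 1 was 2-fold lower and 4 were below the median gene. By construction as many of the gene models tested in that order lie above the median gene as below it. GRMZM2G149422 had a log2 ratio of 0.05 and hox3 of 0.47 in the construct order. The 2 orders share cells, and neither has a replicate.

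Of all eligible gene models, the 5 most like the ms23 share over the 95 cells had Spearman correlations with it of 0.29 to 0.31. They were GRMZM2G126594, GRMZM2G063271, GRMZM2G047139, GRMZM2G029001 and hsp82. The quartiles of this correlation over the eligible gene models were -0.07 and 0.09. Those named for it at either end are thus the extremes of 1773 values. GRMZM2G063271 also had the highest chance that a cell of the high-share group exceeds a cell of the low-share group, at 0.748. Equality gives 0.5, and the quartiles of this chance over the eligible gene models were 0.446 and 0.552. GRMZM2G063271 is named for this after its values were seen. Its levels ran from 0 to 342 TPM with a median of 173 in the high-share group, and from 0 to 212 with a median of 108 in the low-share group. Means were 170 ± 82.4, 111 ± 68.6 and 95.2 ± 67.8 TPM from the high-share to the low-share group (log2 0.76).

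At the opposite end the correlations were larger in size. The 5 lowest, a choice made after the values were seen, were GRMZM2G379754 and GRMZM2G134529 (both -0.36), GRMZM2G099048 (-0.35), hox3 (-0.33) and GRMZM2G105248 (-0.33). The last of these, not described so far, ran from 0 to 328 TPM with a median of 64.8 in the high-share group, and from 0 to 302 with a median of 142 in the low-share group. Its means were 87.4 ± 83.3, 86.2 and 140 ± 75.8 TPM from the high-share to the low-share group (log2 -0.64), and the groups overlapped.

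The lowest chance that a cell of the high-share group exceeds one of the low-share group, 0.238, belonged to elfa3 (GRMZM2G154218), also named after its values were seen, which encodes an elongation factor that brings charged tRNAs to the ribosome. It averaged 30.3 ± 41.0 TPM in the high-share group, 65.8 in the middle and 69.1 ± 46.7 in the low-share group (log2 -0.99), with medians of 18.8 and 70.1. It was seen in 16 and 27 cells, or 3.33% and 35.5% after thinning. Its close relatives elfa2 and elfa7 stood at 0.31 and 0.16, and reads of such similar genes can be split by the counting.

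Gene lists put together by name were read by the number of members above and below the median gene model. For these counts the minimum of 25% of cells and 50 TPM was applied to all 95 cells together, so that it did not depend on the group, and by construction 50% of the 1437 gene models that met it lie on each side. None of the lists had a member at 2-fold or more among them. A median over all members with a UMI, with no minimum, is given beside the counts.

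The heat shock list held 14 such members, 10 above and 4 below, with a median log2 ratio of 0.22, or 0.27 with no minimum over 24 members. The heat shock proteins among them keep others folded under stress, and the list also holds the heat shock factor genes Hsf01 and Hsf05. The cytosolic chaperone gene hsp82 (GRMZM5G833699), of the HSP90 family, had the widest ratio at 0.91. It ran from 0 to 1689 TPM with a median of 628 in the high-share group, and from 0 to 871 with a median of 273 in the low-share group. The middle group, at 654 TPM on average, was as high as the high-share group (634). It was thus the mean of the low-share group (328) that was lower, while the cells of the groups overlapped. The disaggregase gene hsp101 averaged 1836 against 1339 TPM (0.44), with 1965 in the middle, and the small heat shock gene hsp18f 2556 against 1893 TPM (0.42), with 2800 in the middle. Hsp70 averaged 2913 against 2476 TPM (0.22), and hsp22 1885 against 1864 TPM (0.00). The other HSP90 members, HSP90-1 and HSP90-2, were at 0.09 and -0.01.

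Folding genes of the endoplasmic reticulum lay above the median in 4 of 4, with a median of 0.42, but with no minimum the median over 18 members was 0.11. The lumenal chaperones b-70 and bip2 averaged 393 against 285 TPM and 152 against 116 TPM. Calnexin (CNX) averaged 129 against 93.3 TPM, and the disulfide isomerase gene pdi8 64.2 against 40.5 TPM. The cells of the groups overlapped in each of these genes.

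Of the jasmonate genes 3 of 3 lay above, with a median of 0.32, but with no minimum the median over 41 members was 0.12. The oxophytodienoate reductase genes opr2 and opr1 averaged 6476 against 5120 TPM and 3110 against 2567 TPM. In the middle group opr2 averaged 6110 TPM and opr1 3217 TPM, which for opr1 was above both other groups. The genes of earlier steps, aos1 for allene oxide synthase and aoc1 for allene oxide cyclase, averaged 93.9 against 71.0 TPM and 58.9 against 34.7 TPM. For aos1 the middle group, at 39.7 TPM, was below both others, and for aoc1 it was at 36.1 TPM. The aoc1 gene met the minimum in the high-share group alone and is not in the count. Of the glutathione S-transferase genes, which act in detoxification, 5 of 7 lay above, with a median of 0.36, but with no minimum the median over 21 members was -0.03. Among these gst5 averaged 2884 against 2219 TPM (0.36), with 3112 in the middle, and gst7 1022 against 729 TPM (0.47). For gst7 summed UMIs were 774 against 816, a ratio relative to the median gene of 1.04 with an interval of 0.942 to 1.15.

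Other lists lay close to the median gene or below it. Wound and defence genes had 3 of 4 above with a median of 0.05, or 0.03 with no minimum over 30 members. The proteinase inhibitor gene MPI averaged 1517 against 1527 TPM. Autophagy genes had 3 of 6 above, with a median of 0.07, but -0.08 with no minimum over 15 members. Genes of translation had 9 of 20 above, with a median of -0.04, but 0.03 with no minimum over 50 members. Of the glycolysis genes 2 of 7 were above, with a median of -0.26, or -0.21 with no minimum over 15 members. The cytosolic glyceraldehyde phosphate dehydrogenase gene gpc4 averaged 94.2 against 145 TPM (-0.58), with 68.7 in the middle, below both. Its UMIs numbered 111 in each group, a ratio relative to the median gene of 1.10 with an interval of 0.835 to 1.44. The aldolase gene ald1 averaged 563 against 463 TPM (0.26). Among 3 ubiquitin genes 2 were above, with a median of 0.01, or 0.06 with no minimum over 3 members.

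Genes that belong to the anther programme gave little signal in either group. Tapetum genes ms26 and ms8 had 1 UMI each, ms26 in the high-share group and ms8 in the low-share group. The summed tapetum markers had 12 and 14 UMIs. Of the named bHLH genes 1, bHLH172, met the minimum, through the low-share group alone, at 38.2 against 63.7 TPM (-0.63). Of the small RNA machinery 1 met it as well: dcl1, the Dicer that cuts microRNA precursors, at 67.5 against 61.3 TPM (0.10).

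PHAS loci give rise to the precursors of phasiRNAs, and their summed levels were similar in the groups. The 36 rows of the 24-nucleotide class summed to 0 to 761 TPM in the high-share group, with a median of 295, and to 42.9 to 761 TPM in the low-share group, with a median of 305. Means were 317 ± 192 and 315 ± 142 TPM, with 290 ± 146 in the middle, and the log2 ratio was -0.01. UMIs numbered 327 against 330, a ratio relative to the median gene of 1.09 with an interval of 0.930 to 1.27. A UMI was seen in 29 of 31 and 31 of 31 cells, or 76.7% and 83.9% after thinning. The pre-meiotic pool, which received other factors, averaged 299 TPM, a level close to those of both groups.

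Within this class 24PHAS_NO166 gave most of the UMIs, with 222 and 192, and averaged 210 ± 166 against 191 ± 105 TPM (log2 0.11), with 169 in the pre-meiotic pool. Its ratio of summed UMIs relative to the median gene was 1.27 with an interval of 1.04 to 1.55 that leaves out equality, while it was detected in fewer cells of the high-share group, 26 against 31. 24PHAS_NO63 averaged 60.6 ± 51.2 against 48.2 ± 51.6 TPM (0.26). It was seen in 23 and 20 cells, and the pre-meiotic pool averaged 70.8 TPM. The sparser rows 24PHAS_NO269 (14.9 against 25.2 TPM, -0.52) and 24PHAS_NO156 (12.8 against 27.4 TPM, -0.73) were lower in the high-share group, on 17 against 30 and 16 against 24 UMIs, and both intervals of their UMI ratios (0.322 to 1.16 and 0.363 to 1.44) include equality. UMIs fell on 13 of the 36 rows in the high-share group and on 15 in the low-share group.

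The 44 rows of the 21-nucleotide class summed to a mean of 83.5 ± 88.0 TPM in the high-share group, 93.3 ± 61.5 in the middle and 86.9 ± 78.7 in the low-share group (log2 -0.07). Their UMIs numbered 115 and 96, a ratio relative to the median gene of 1.31 with an interval of 0.993 to 1.74. Cells with a UMI were 21 of 31 and 24 of 31, or 26.7% and 35.5% after thinning. The pre-meiotic pool averaged 118 TPM. Rows 21PHAS_NO588 and 21PHAS_NO589 held equal UMIs in all 96 cells of the pool, each with 28 in the high-share and 17 in the low-share group. The sum and its ratio include both. If these are the same molecules, they are counted in each row and the interval is too narrow.

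Markers of leaf cell types were sparse in both groups. The C4 mesophyll list summed to a mean of 114 TPM in the high-share group (0 to 410) and 92.1 in the low-share group (0 to 329). Most of it came from the C4 pyruvate phosphate dikinase gene C4ppdkZm1, with 117 and 103 UMIs, while the phosphoenolpyruvate carboxylase gene pep1 had 4 and 3 UMIs. In the bundle sheath list ME1 had 12 and 13 UMIs and rbcS 0 in both groups. The epidermal gene ocl1 averaged 48.5 TPM in the high-share group, 26.7 in the middle and 33.7 in the low-share group. The part of such differences in the gene ratios above was not tested.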

How the data were processed

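Protoplasts were profiled with CEL-seq2, which counts 3' ends of polyadenylated RNA, per the labels. HISAT2, SAMtools and UMI-tools and the build B73 RefGen_v3 are named in the submitters' processing notes; the sources used here give no versions. The values deposited by the authors are named TPM but were treated as a signal: each is a UMI count times 1000000 divided by a total that was recycled across cells. Multiplying back gave whole numbers for 1001042 of 1001042 nonzero values (tolerance 0.001 UMI), and TPM was recomputed per cell. The design had assumed TPM as deposited. Cells of the bHLH pool with 20 factor UMIs were ordered by ms23 share, with ties in protoplast order. Ratios are log2 of mean TPM plus 10. Factor gene models, construct rows and PHAS rows were left out of the count of gene models.

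The members and lists were chosen with earlier results of these data known. Genes named are the 12 highest and 12 lowest ratios that keep their sign without the highest cell of each group. Their sign also had to match the chance that a cell of one group exceeds one of the other. Also named are the 5 most correlated with the share and some members of the lists. The list members were not chosen by level alone. For example, gst7 and gpc4, with the widest ratios of their lists, were named over members with higher levels. The PHAS rows 24PHAS_NO166 and 24PHAS_NO63 were seen in most compared cells, and the other PHAS rows were named for having the most UMIs. The exact name patterns of the lists were written after values were seen. Names came from RefSeq's table for Zm-B73-REFERENCE-NAM-5.0, which had a row for 16091 identifiers and an informative name for 2233. Coordinates are not given because the builds differ. Intervals are exact binomial ones at 95%. Cells were thinned to 5000 UMIs to compare detection, which left 30 of the high and 31 of the low-share group. Doublets were not called, as samples are labelled as single protoplasts. The highest Pearson correlation between 2 kept cells was 0.765. The recovery and ratios were tested on simulated data. Alternatives covered the pseudocount, filters, scaling, cells and the share itself. Python 3.11.15, NumPy 2.4.6, pandas 2.3.3, SciPy 1.17.1 and matplotlib 3.10.9 were used.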

Additional observations from a re-analysis of the deposited data

How the results depend on the processing

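Counts of gene models past 2-fold (15 higher, 15 lower) depended on the settings. They were 34 and 38 with a pseudocount of 1, 0 and 0 with 100, 194 and 157 of 31982 with no minimum, and 0 and 1 of 330 at 200 TPM or more. They were 95 and 139 after thinning to 5000 UMIs, 25 and 32 with totals free of factors, constructs and the most abundant gene model, and 3 and 3 with the kept cells split at the median into groups of 47. Between groups of 23 cells at either end 36 were lower, and from summed UMIs 2 were lower. The deposited values, an alternative chosen after seeing the data, gave 627 and 564. The 21-nucleotide PHAS sum had a log2 ratio of 0.36 from summed UMIs. Without the deepest cell of the low-share group, also chosen after seeing the data, 15 were higher and 19 lower. The setting without the 5 cells of widest share interval was added after seeing the data as well, and so was the minimum over all kept cells, which gave 3 and 3 of 1437.

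Of 24 named gene models 4 kept their sign in all 19 settings and 19 in all but the construct order. The 24 were picked for their gap in cells that these settings largely reuse, so a kept sign is no independent check. Of the 4, GRMZM2G149422 (0.05), GRMZM2G068331 (0.08) and GRMZM2G099048 (-0.01) hardly differed from the median gene in the construct order, and icl1 was at -1.29. In that order the sign turned for GRMZM2G111475 (-0.46), GRMZM2G075244 (-1.18), GRMZM2G019121 (-0.63), GRMZM2G099352 (-0.42), GRMZM2G078826 (-0.23), GRMZM2G152179 (-1.34), GRMZM2G112912 (-0.60), GRMZM2G095280 (-0.61), GRMZM2G465430 (-0.63), GRMZM2G312110 (0.47), GRMZM2G329069 (0.42), GRMZM2G091839 (0.70), GRMZM2G314546 (0.47), GRMZM2G181135 (0.65), GRMZM2G039214 (0.23), GRMZM2G379754 (0.25), GRMZM2G134529 (0.23) and GRMZM2G077897 (0.06). It also turned after thinning for GRMZM2G078826 (-0.55), at 50 factor UMIs for GRMZM2G399921 (0.31), and with the deposited values for GRMZM2G007157 (-0.20), GRMZM2G399921 (0.78), GRMZM2G091839 (0.36) and GRMZM2G181135 (0.66). The cause was not tested. The construct share spread no wider over cells than counting alone gives, so its order cannot decide on these gene models. With the ratio averaged over cells above and below the median depth, all 24 kept their sign and 20 stayed past 2-fold. Since the 24 were picked in the same cells, this is no independent check on depth. No paired analysis was possible because both groups come from 1 pool and protoplast numbers only count cells. Depth limits the 24 named gene models, each with fewer than 100 UMIs in each group.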

Other observations

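Of the gene models whose mean passed 200 TPM in a group, 3 had a log2 ratio beyond 0.80 in size, and they were picked out after their values were seen. One is hsp82. AC188003.3_FG011 averaged 244 TPM in the high-share group, 201 in the middle and 485 in the low-share group (-0.97), but -0.34 without the highest cell of each group. GRMZM2G113875 averaged 214, 254 and 377 TPM (-0.80), and -0.93 without those cells. The chance that a cell of the high-share group exceeded one of the low-share group was 0.276 for GRMZM2G113875 and 0.477 for AC188003.3_FG011, where equality gives 0.5.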
